A study of Caenorhabditis elegans with 2 samples.

Results

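The GATA factor genes of Caenorhabditis elegans were examined for binding by CND-1, a basic helix-loop-helix (bHLH) protein of the NeuroD family. They were chosen by name and number 10 of the 19973 nuclear protein-coding genes of the Ensembl annotation: elt-1, elt-2, elt-3, elt-4, elt-6, elt-7, egl-18, egl-27, end-1 and end-3. All 10 names matched an annotated gene. Each gene was given a window from 3000 bp upstream of its annotated start to its annotated end, and every region summit inside that window was recorded with its signal and its rank in each replicate.

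Binding had been mapped by chromatin immunoprecipitation and sequencing (ChIP-seq) with an antibody against GFP. The animals were whole embryos of mixed stage and mixed sex from strain OP349, genotype unc-119(ed3) III; wgIs349, a transgenic line that stably carries CND-1 fused at its C-terminus to GFP and FLAG. The labels give 2 biological replicates, both in 1 group, with an age of 3 hours and bleaching as the way eggs were obtained. No condition is set against another, and reads of the control were not analysed here. Whole embryos mix every cell type, so a region cannot be assigned to neurons, epidermis or gut. The binding is that of a tagged protein made from a transgene.

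GATA factors are zinc-finger proteins named for the GATA core of the DNA sites they bind. In C. elegans they act in successive steps of tissue formation. END-1 and END-3 specify the endoderm, after which ELT-2 and ELT-7 run intestinal differentiation. ELT-1 specifies the epidermis, ELT-3 acts in epidermal differentiation, and the paralogues EGL-18 and ELT-6 maintain the fate of the seam cells, the stem-like cells of the lateral epidermis. EGL-27 differs from the others in that its GATA-type zinc finger lies in a protein related to the MTA subunits of the NuRD chromatin complex, and it acts in cell polarity and Wnt-dependent asymmetric division.

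The authors deposited 4 lists of regions on the ce11 assembly. The lists for replicate 1, replicate 2 and the pooled reads hold 30000 regions each, peaks together with background, and the thresholded list holds 1964 regions. Signal is the authors' own value per region, an enrichment with no stated scale, and rank 1 is the strongest region of a list. The thresholded list behaved as a single signal limit on the pooled list, since its weakest nuclear region had a signal of 103.07, the strongest nuclear pooled region outside it had 103.06, and 0 nuclear regions outside it reached its weakest signal. A thresholded region can for that reason rank below 1964 in one of the replicates. The depth of sequencing is unknown from such lists. Most regions of the thresholded and pooled lists had 1 fixed width of 396 bp with the summit at their centre.

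CND-1 regions past the threshold lay at egl-18, elt-6 and egl-27, while the other 7 GATA genes had none. That is 3 of 10, where the same rule called 11.0% of the 19973 protein-coding genes. The 100 bp around each of the 5 summits were read from the RefSeq WBcel235 sequence on the plus strand, the coding strand of all 10 genes. Capitals mark E-boxes, the CANNTG sites that bHLH proteins recognise. These 5 windows are given because they carry every thresholded summit of the 10 genes.

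egl-18 intron, chrIV:1904233-1904332: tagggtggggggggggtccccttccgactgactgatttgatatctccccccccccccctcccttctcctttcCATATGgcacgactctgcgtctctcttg
egl-18 upstream, chrIV:1901070-1901169: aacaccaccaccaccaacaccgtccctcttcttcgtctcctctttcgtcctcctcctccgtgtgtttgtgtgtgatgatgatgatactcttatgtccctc
egl-18 intron, upstream of elt-6, chrIV:1916290-1916389: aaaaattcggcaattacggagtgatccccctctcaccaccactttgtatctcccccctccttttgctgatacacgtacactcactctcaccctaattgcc
egl-27 intron, chrII:6839068-6839167: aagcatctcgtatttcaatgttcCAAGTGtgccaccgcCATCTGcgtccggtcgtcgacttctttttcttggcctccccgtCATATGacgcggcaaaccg
egl-27 upstream, chrII:6834042-6834141: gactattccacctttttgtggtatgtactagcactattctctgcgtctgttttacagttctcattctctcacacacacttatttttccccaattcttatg

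The seam cell genes egl-18 (WBGene00001186, chrIV:1902322-1917840) and elt-6 (WBGene00001253, chrIV:1917977-1921643) lie in tandem, 136 bp apart, and their windows overlap. The strongest region at any of the 10 genes was the intronic one of egl-18, 1961 bp downstream of the gene start (chrIV:1904085-1904480). Its signal was 99.37 in replicate 1 and 86.02 in replicate 2, with 187.88 in the pooled list. Those values ranked 560th in replicate 1, 886th in replicate 2 and 665th among the pooled regions, so it stood among the 1964 strongest in every list, and the replicate summits lay 2 bp and 0 bp from the pooled summit. Of the 3 annotated egl-18 transcripts, 1 spans this summit, as an intron, and the other 2 start 9163 and 9171 bp downstream of it.

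A second region lay 1202 bp upstream of the egl-18 start (chrIV:1900922-1901317), with a signal of 82.57 in replicate 1, 68.14 in replicate 2 and 154.29 in the pooled list. It ranked 804th in replicate 1 and 1372nd in replicate 2. The summit falls inside the annotated non-coding RNA gene F55A8.6 (WBGene00201394, chrIV:1900987-1901135, minus strand). A weaker summit 1000 bp upstream of egl-18, whose region overlaps this one, ranked 3750th in replicate 1 and 6886th in replicate 2 and stayed below the threshold.

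The third region lay in an intron shared by all 3 egl-18 transcripts and 1637 bp upstream of elt-6 (chrIV:1916142-1916537), and it was the sole thresholded region in the elt-6 window. The replicates differed here more than at the 2 stronger sites: replicate 2 had a signal of 71.05 and rank 1246, and replicate 1 had a signal of 40.6 and rank 3927, with its summit 94 bp away. The pooled signal was 106.31, close to the limit of 103.07. Nearer to elt-6, a summit 861 bp upstream had a counterpart at rank 2512 in replicate 1 and none within 100 bp in replicate 2, whereas one 137 bp into elt-6 had a counterpart at rank 4036 in replicate 2 and none in replicate 1. No elt-6 summit thus ranked among the 1964 strongest in both replicates.

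**Figure D1:**
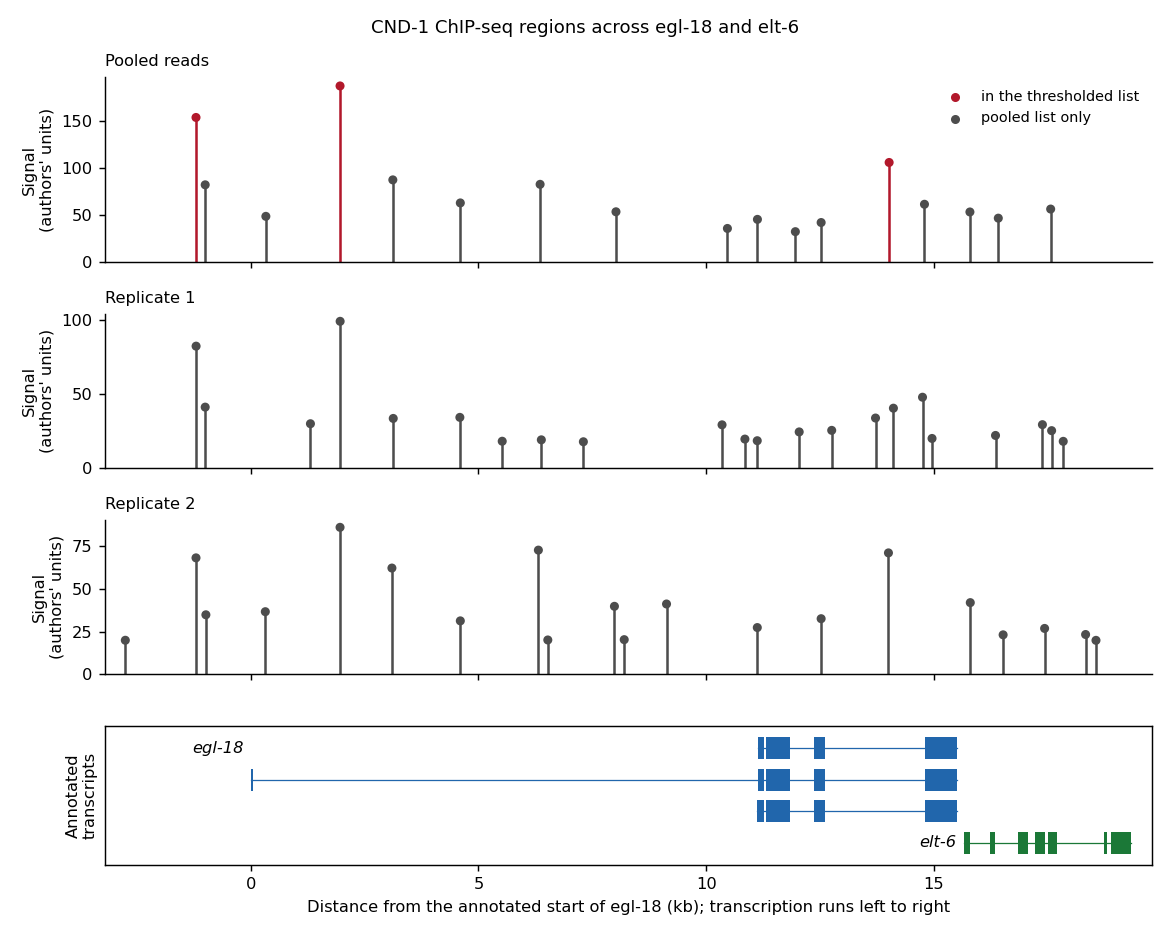
Signal (authors' units) of every region summit across egl-18 and elt-6, by distance in kb from the annotated start of egl-18, in the pooled list and in replicates 1 and 2, with annotated exons as boxes below (egl-18 in blue, elt-6 in green). The summits 1202 bp upstream and 1961 bp downstream of the egl-18 start are the tallest in replicate 1 and in the pooled list, and the third thresholded summit (14018 bp) is taller in replicate 2 than in replicate 1.

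Below the threshold, 5 further egl-18 summits of the pooled list had a counterpart within 100 bp in both replicates. The largest gap between replicates was at 6354 bp downstream of the start, with a signal of 72.67 and rank 1202 in replicate 2 against 19.19 and rank 26446 in replicate 1. The summit 3120 bp downstream ranked 1638th in replicate 2 and 6804th in replicate 1. At the starts of the shorter egl-18 transcripts, 11126 bp from the gene start, the counterparts ranked 27995th in replicate 1 and 13252nd in replicate 2. In replicate 1 and the pooled list, the 2 strongest egl-18 regions thus flanked the start of the long transcript. In replicate 2 the upstream one (rank 1372) stood behind summits of rank 1202 and 1246 further downstream. The summit at the starts of the short transcripts was weak in both replicates.

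The MTA-related gene egl-27 (WBGene00001194, chrII:6835008-6847908) had 2 thresholded regions. The stronger lay 4110 bp downstream of the gene start (chrII:6838920-6839315), with a signal of 77.03 in replicate 1, 78.14 in replicate 2 and 152.07 in the pooled list. It ranked 941st in replicate 1 and 1056th in replicate 2, the closest agreement in rank among the 5 thresholded regions. This summit is intronic for 14 of the 24 annotated transcripts and lies 1068 bp upstream of the nearest internal transcript start. Its 100 bp window holds 3 E-boxes, among them CATCTG, the reverse complement of CAGATG, centred 9.5 bp from the summit. The weaker region lay 916 bp upstream of the gene start (chrII:6833894-6834289), with a signal of 59.04 and rank 1587 in replicate 1, 50.03 and rank 2599 in replicate 2, and 111.4 in the pooled list. Its window holds no E-box.

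A cluster of regions just under the threshold lay in an intron further along egl-27, spanned by 22 of its 24 transcripts. Its summits were 8456, 8693, 8908 and 9678 bp downstream of the gene start, with pooled signals of 94.25, 84.52, 79.31 and 100.58, and every one of the 4 had a counterpart within 100 bp in both replicates. The first of them ranked 2350th in replicate 1 and 2881st in replicate 2, and the last ranked 3425th in replicate 1 and 1795th in replicate 2. The first 3 are spaced more closely than the width of a region, so they share sequence. A tRNA, snRNA or snoRNA gene lay within 100 bp of the first summit in replicate 2, at 8449 bp. None lay that near its pooled or replicate 1 summit. Near the gene start, replicate 1 had a region of signal 62.34 and rank 1414 at 698 bp that had no counterpart within 100 bp in replicate 2, whose summits on either side were at 830 bp (signal 38.93, rank 4964) and at 206 bp upstream (signal 39.57, rank 4744), with a weaker one at 1111 bp (signal 25.65, rank 15450).

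**Figure D2:**
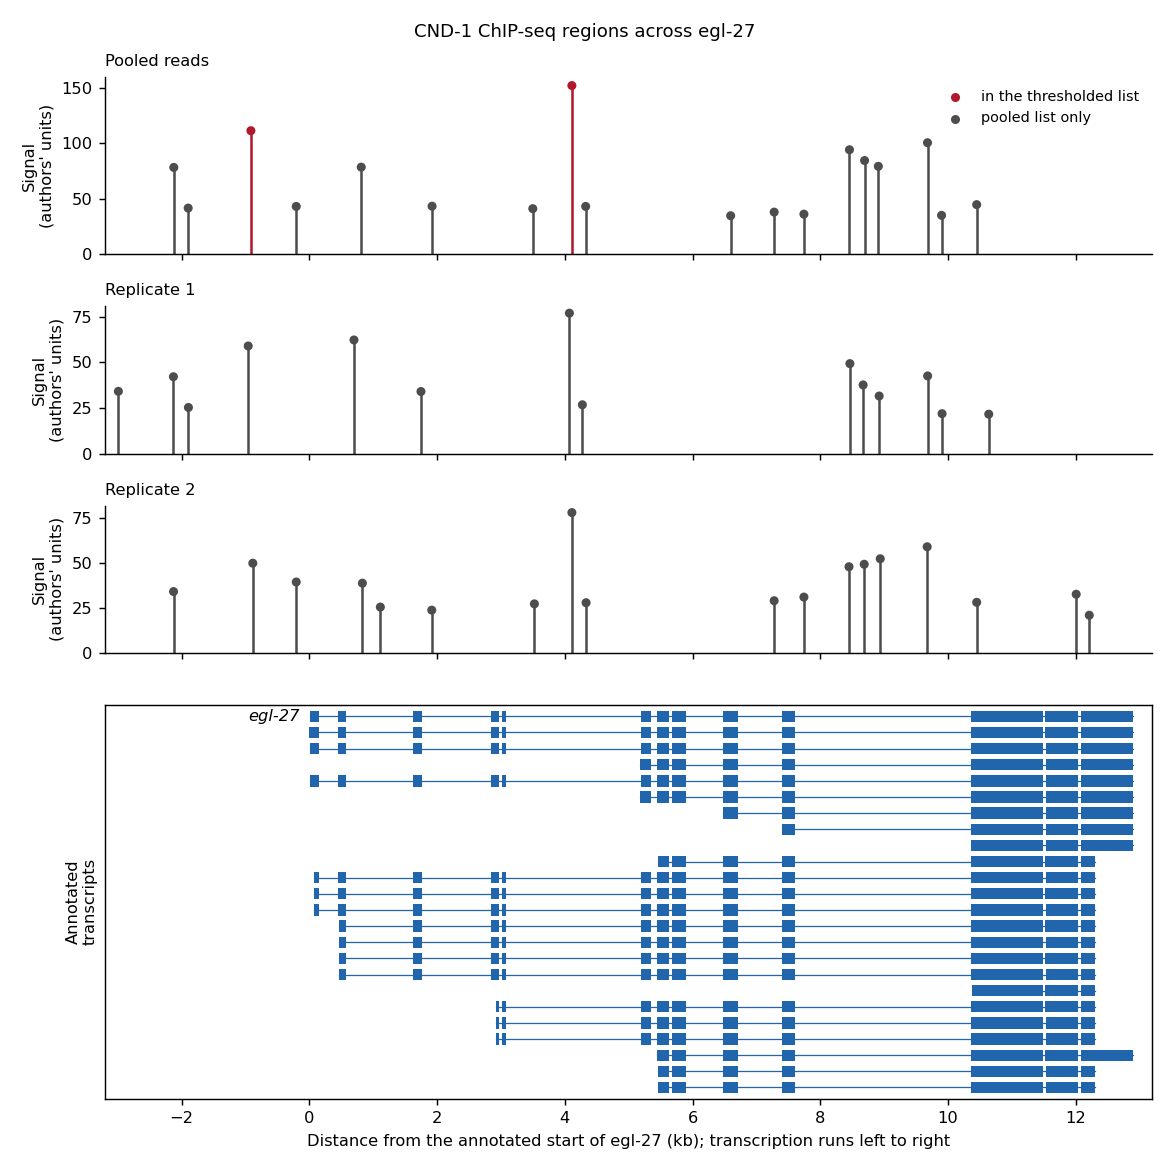
Signal (authors' units) of every region summit across egl-27, by distance in kb from its annotated start, in the pooled list and in replicates 1 and 2, with the exons of the 24 annotated transcripts below. The summit at 4110 bp is the tallest in all 3 lists, and a group of summits between 8456 and 9678 bp recurs in each.

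The epidermal genes elt-1 and elt-3 had weaker regions, none past the threshold. These come from lists that hold peaks together with background, so they may include background. At elt-1 (WBGene00001249, chrIV:9614995-9620280), the strongest pooled summit lay 4140 bp downstream of the gene start, 203 bp upstream of an internal transcript start, with a pooled signal of 81.9. It had a signal of 36.76 and rank 5253 in replicate 1 and 42.46 and rank 3897 in replicate 2. A further summit 1590 bp upstream of elt-1 ranked 18535th in replicate 1 and 6190th in replicate 2. The strongest elt-1 summit of replicate 1 alone, 1779 bp upstream, ranked 3372nd and had no counterpart within 100 bp in replicate 2. At elt-3 (WBGene00001251, chrX:13934874-13941216), 0 of the 6 pooled summits had a counterpart within 100 bp in both replicates, against 35.4% of all nuclear pooled regions. The strongest elt-3 summit of replicate 2 ranked 2504th with a signal of 50.86, in an intron 2165 bp downstream of the start, while the best of replicate 1 ranked 12572nd with 27.02. The replicate 1 summit lay 1990 bp downstream of the start, and the regions of these 2 summits overlap.

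The endodermal and intestinal genes stood lowest in the pooled list. For elt-2 (WBGene00001250, chrX:10481240-10483441), the best summit ranked 18516th in replicate 1 (signal 22.96) and 15122nd in replicate 2 (signal 25.88), at different places in the gene. The endoderm specification gene end-1 (WBGene00001310, chrV:13985128-13987074) had best ranks of 17334 in replicate 1 and 18732 in replicate 2, again at different places, and no pooled summit. At end-3 (WBGene00001311, chrV:14014695-14015980) replicate 1 had a region of rank 1962 (signal 53.33), which falls just inside the 1964 strongest. That summit was 2965 bp upstream of end-3, within the neighbouring gene ddx-17 and at the edge of the end-3 window, and had no counterpart within 100 bp in replicate 2. The best end-3 rank of replicate 2 was 8578, at a summit 2388 bp upstream and 26 bp from the gene aip-1. For elt-7 (WBGene00015981, chrV:4770670-4773086), the lists held a single summit, ranked 27429th in replicate 2, inside the neighbouring gene C18G1.9. Finally, elt-4 (WBGene00001252, chrX:10475527-10475959), a short gene 5280 bp upstream of elt-2, had no summit in any list. Rank 30000 was the end of each replicate list, so a missing summit means a signal below 17.8 in replicate 1 or below 18.1 in replicate 2, or no region called there.

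**Figure D3:**
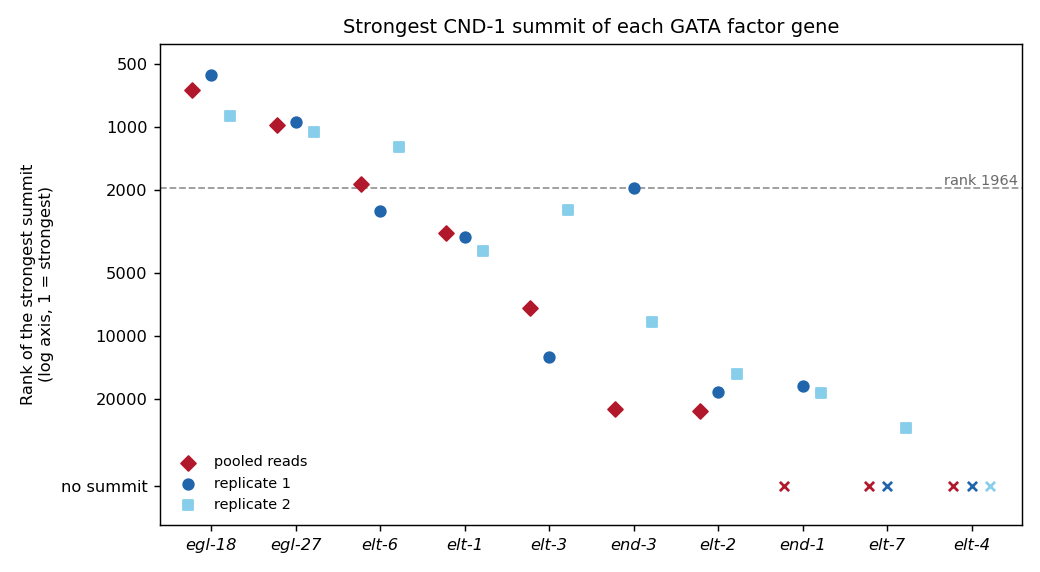
Rank of the strongest summit in the window of each GATA factor gene (log axis, rank 1 at the top) in the pooled list, replicate 1 and replicate 2, with crosses where a list has no summit in the window and a dashed line at rank 1964. The points of egl-18 and egl-27 lie above the line in all 3 lists, those of elt-6 straddle it, and end-3 touches it in replicate 1 alone.

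In order of best pooled rank the genes ran egl-18 (665), egl-27 (974), elt-6 (1865), elt-1 (3215), elt-3 (7365), end-3 (22281) and elt-2 (22820), with end-1, elt-7 and elt-4 unranked. The ranges of the 2 replicates' best ranks did not overlap between egl-18 (560 and 886), egl-27 (941 and 1056), elt-6 (2512 and 1246) and elt-1 (3372 and 3897), each given as replicate 1 and then replicate 2. The range of elt-3 (12572 and 2504) overlapped with those of elt-6, elt-1 and end-3 (1962 and 8578). A range holds 2 values, which can come from different summits. At elt-6 they lay 904 bp upstream in replicate 1 and 1652 bp upstream in replicate 2. How often such ranges lie apart among all genes was not counted, so no difference between genes is drawn from them. The separation depends on the window. With 1500 bp upstream to 500 bp downstream of any transcript start, egl-18 (804 and 1372) spanned egl-27 (941 and 1056), and elt-6 (2512 and 4036) overlapped with elt-1 (5253 and 3897). The ranges of elt-2 (18516 and 15122) and end-1 (17334 and 18732) also overlapped. Among the 7 members with a pooled summit the median best rank was 3215, and it was 8646 among all 13993 protein-coding genes with one. A best rank is taken over a whole window, so a longer window has more room for a good one. The windows of egl-18 (18.5 kb) and egl-27 (15.9 kb), at the head of the order, were the longest. Within the rest, elt-6 (6.67 kb) preceded the longer elt-1 (8.29 kb) and elt-3 (9.34 kb), and end-3 (4.29 kb) preceded elt-2 (5.2 kb). The elt-6 rank is that of the summit in the egl-18 intron, which the long egl-18 window holds too. The ranks of end-3 and elt-2, 22281 and 22820, lay close together. The part of window length in the order and in the medians was not tested.

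The other call rules were set against all genes in the same way. The 3 genes with a thresholded summit rest on 5 summits, 1 of them shared by egl-18 and elt-6. At least 2 thresholded summits were found at egl-18 and egl-27, 2 of 10, against 1.54% of all genes. The 1964 strongest regions of each replicate shared a summit, to within 100 bp, at egl-18 and egl-27, 2 of 10, against 8.03% of all genes. Extending this to the 5000 strongest regions added no member, against 13.4% of all genes. With the full replicate lists, a matched summit was found for 4 of 10 (elt-1, elt-6, egl-18 and egl-27), against 41.9% of all genes. A pooled summit of any rank was present for 7 of 10 members, against 70.1% of all genes, a replicate 1 summit for 8 of 10 against 73.0%, and a replicate 2 summit for 9 of 10 against 71.5%. The lack of any summit, seen at elt-4, applied to 16.9% of all genes. The shares at the lower limits are close to the background, and no test was made of the difference at the higher ones.

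Window length moves with these counts. The egl-18 window of 18.5 kb and the egl-27 window of 15.9 kb were at least matched by 1.89% and 2.88% of all genes, the median window was 6.04 kb among the 10 members and 5.03 kb among all genes, and a longer window has more room for a summit. Per kb, the pooled list had 1.13 summits in the egl-27 window, 0.756 in that of egl-18 and 0.75 in that of elt-6, against a median of 0.248 and a 90th percentile of 0.714 over all genes. The density was 0.642 summits per kb for elt-3, 0.483 for elt-1, 0.467 for end-3 and 0.192 for elt-2, and 0 for the remaining 3. Over the joined windows of the 10 genes (79.1 kb) the replicates gave 0.644 ± 0.018 summits per kb (SD, n = 2), against 0.312 in the windows of all genes in each replicate. The part of window length in the counts was not tested.

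**Figure D4:**
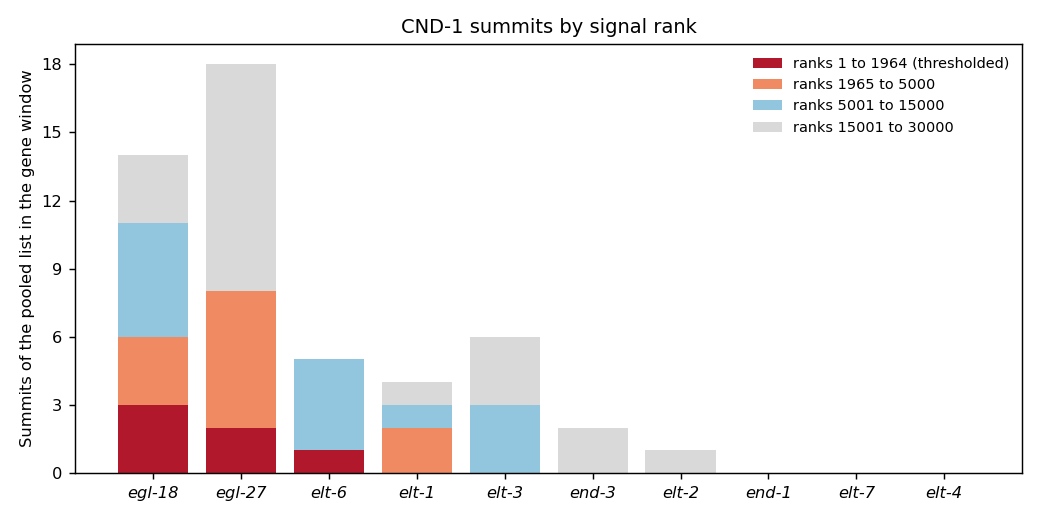
Number of pooled-list summits in the window of each GATA factor gene, stacked by signal rank from the thresholded regions (ranks 1 to 1964) upward to ranks 15001 to 30000. egl-27 has 18 summits and egl-18 has 14, of which 2 and 3 are thresholded, and end-1, elt-7 and elt-4 have none.

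The replicates were also compared summit by summit. Of the 48 pooled summits in the 10 windows, 19 (39.6%) had a counterpart within 100 bp in both replicates, against 35.4% of the 29976 nuclear pooled regions. Replicate 1 held a counterpart for 29 of the 48 (60.4%, against 61.6% of all nuclear pooled regions). Replicate 2 held one for 35 (72.9%, against 63.7%). No counterpart in either replicate was found for 3 of the 48, against 3019 of the 29976. Of these 19, 5 were the thresholded summits, and the other 14 belonged to egl-27 (6), egl-18 (5) and elt-1 (3). By place, 26 of the 48 summits were intronic and 9 were promoter summits, meaning that they lay at most 500 bp before or 100 bp after the start of a transcript. Another 6 were intergenic, 4 were in coding exons, 1 was in a 5′ UTR, and 2 were in non-coding genes and in none of the other classes. Counted whatever their class, 5 of the 48 summits lay inside an annotated non-coding RNA gene. None of the 5 thresholded summits fell in a promoter by this definition, and none had a tRNA, snRNA or snoRNA gene within 100 bp. Places were not counted over all nuclear regions, so these counts describe the windows and show no trait particular to the GATA genes.

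**Figure D5:**
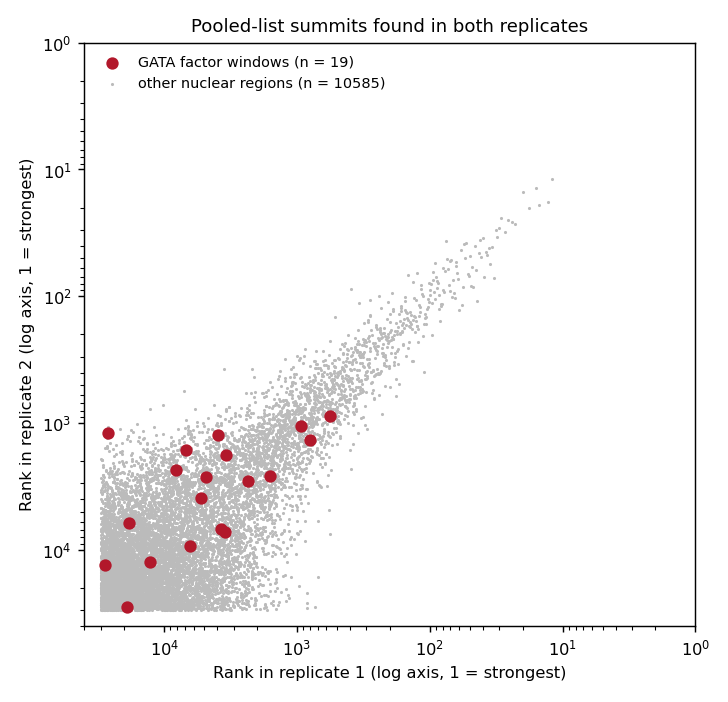
Rank in replicate 1 against rank in replicate 2 (both log axes, rank 1 at the upper right) for the pooled-list summits found within 100 bp in both replicates, with 19 in the GATA factor windows in red and 10585 other nuclear regions in grey. A few red points lie within the narrow band of strong regions and the rest in the broad cloud of weaker ones, the widest gap being an egl-18 summit at ranks 26446 and 1202.

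E-boxes were searched on both strands in the 100 bp centred on each summit. A CANNTG site was present at 2 of the 5 thresholded summits, the egl-18 intron and the egl-27 intron, against 49.4% of all 1940 nuclear thresholded summits. CAGATG, one of the CANNTG sequences, was present at 1 of 5, the egl-27 intron, against 17.4% of all. CAGCTG was at 0 of 5, against 6.86%. GATAA, the core of the sites that GATA factors themselves bind, was at 0 of 5, against 10.6%. Among the 48 pooled summits, a CANNTG site was present at 14 (29.2%, against 38.7% of all nuclear pooled regions), CAGATG at 2 (4.17%, against 6.86%) and GATAA at 7 (14.6%, against 16.2%). These are matches of letters and carry no information on which protein occupied the sites.

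Genes around the GATA factors in the same pathways were counted by the same window rule, against 11.0% of all genes. The other GATA-type zinc finger genes med-1, med-2 and lin-40, of which the first 2 act upstream of end-1 and end-3, had 0 of 3. Of 11 genes listed around endoderm specification, 6 had a thresholded summit (54.5%). They were the TCF gene pop-1 (signal 171.13), the beta-catenin genes sys-1 (172.32) and wrm-1 (134.53), the Nemo-like kinase gene lit-1 (225.15), the Frizzled gene mom-5 (152.45) and the APC-related gene apr-1 (110.26), while skn-1, mom-2 and mom-4 were among those without. The apr-1 summit lay 1349 bp upstream and in the promoter of another gene. Wnt signalling genes made up all 6, and these were already known from earlier results on the same data to carry peaks.

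Genes that act in the target tissues were counted in the same way. Of 19 intestinal differentiation genes, spl-1 was the 1 with a summit (signal 216.76, 2373 bp upstream and in the promoter of another gene), and ges-1, act-5 and ifb-2 had none (5.26%). Of 14 epidermal and seam genes, 2 had one (14.3%), the nuclear receptor gene nhr-23 (signal 108.4) and the TEAD gene egl-44 (signal 208.0), and lin-26, nhr-25 and ceh-16 had none. Of 9 genes listed for the NuRD complex and proteins associated with it, 5 had one (55.6%). The MTA-related proteins belong to that complex. The genes with one were hda-1 (signal 124.61), lin-53 and rba-1 (1 shared summit, signal 179.18), mep-1 (signal 232.11) and dcp-66 (signal 116.71). Among those without were lin-40, let-418 and chd-3. The hda-1 summit lay 963 bp upstream and in the promoter of another gene. The dcp-66 summit had no counterpart within 100 bp in replicate 1. No test was made of any of these lists.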

How the data were processed

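The 4 region lists were used as the authors deposited them: per the deposited file notes, regions were called on each replicate and on the pooled reads with a control alignment, as peaks and background for the irreproducible discovery rate (IDR) procedure, on assembly ce11. Neither the aligner nor the peak caller is named there or in the labels, and the IDR limit is not given in the sources used here. The signal and the −log10 q-value are those deposited by the authors. Signal was used for ranking, with ties sharing the better rank, and the q-value was not used for any result. Summits are the deposited region start plus the summit offset, printed 1-based. No region passed its chromosome's length in the RefSeq WBcel235 sequence, the assembly that ce11 names, and the replicate lists shared 0 identical regions.

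Gene positions came from Ensembl release 115. Windows, matches (100 bp) and motifs were counted with Python 3.11.15, pandas 2.3.3 and NumPy 2.4.6, and the counting was checked on planted summits. Mitochondrial regions were left out of counts but kept in ranks. All 10 members were named, with every gene of the 5 other lists that had a thresholded summit and up to 3 without. Members and lists were chosen with earlier results of these data known, so no test was made. Nothing in the labels shows whether the replicates came from separate cultures. Protein sequences were not used here.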

Additional observations from a re-analysis of the deposited data

How the results depend on the processing

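The number of GATA genes with a thresholded summit, 3 as reported, was 2 or 3 in every alternative tried, and the number with a top-ranked summit in both replicates, 2 as reported, was 2 or, from 1 replicate alone, 3. For the alternative windows, matching distances and E-box lengths, no share over all genes or regions is given here. The values therefore show how the members moved, and not how they stood against all genes. The window of 1500 bp upstream to 500 bp downstream of any transcript start gave 3 thresholded summits in place of 5, 1 of them with an E-box in place of 2, and 0.658 pooled summits per kb in place of 0.607. It took away elt-6, as did the window of 1000 bp upstream (0.687 summits per kb), since the elt-6 summit lies 1637 bp upstream and outside both windows. The rule that the member be the nearest gene (0.581) also took it away, since the summit lies inside egl-18. The window of 5000 bp upstream gave 4 summits with an E-box. The stronger 982 thresholded regions left 3 summits and no elt-6. Without replicate 1 and without replicate 2, the strongest regions of the other replicate gave 7 and 6 summits, 4 and 2 of them with an E-box, 0.657 and 0.632 summits per kb, and 72.9% and 60.4% of pooled summits found in place of 39.6% found in both. A match to 1 replicate cannot be rarer than a match to both, so the rise in that share was fixed in advance. The same holds for the 3 members with a top-ranked summit from 1 replicate alone. Without replicate 2, elt-6 was not called and end-3 was. Matching within 200 bp gave 52.1% found in both. An E-box window of 50 bp gave 1 summit with an E-box and a window of 200 bp gave 4. These results have 52 alternative values, and 15 moved, meaning a change by over 1.5 times for a count and by more than 1 SD between the replicates for a density or share, which is a narrow limit for the density. The best ranks by gene and replicate have alternatives too. Ranking among nuclear regions alone changed the 17 ranks by less than the SD of the gene's 2 replicates, except that elt-7, ranked in replicate 2 alone, has no SD and took rank 27403 in place of 27429. The window around transcript starts gave 13 ranks and moved 6 of them: egl-18 to 804 and 1372, elt-1 in replicate 1 to 5253, elt-3 in replicate 2 to 11684, elt-6 in replicate 2 to 4036, and end-3 in replicate 1 to 10715, in place of 1962. It left no summit for elt-2 in either replicate, or for end-1 and end-3 in replicate 2. No paired analysis was possible because the samples form 1 group. Depth is unknown, and 2 replicates limit every value.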

Other observations

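The flanks of egl-18 and egl-27 beyond 3000 bp carry further CND-1 regions, found when the window was lengthened to 5000 bp. The region 4001 bp upstream of egl-18 (chrIV:1898123-1898518) had a signal of 39.05 and rank 4396 in replicate 1 and 75.94 and rank 1118 in replicate 2. The region 3940 bp upstream of egl-27 (chrII:6830870-6831265) had 79.11 and rank 892 in replicate 1 and 105.85 and rank 585 in replicate 2, and its pooled signal of 178.96 was above both thresholded regions inside the egl-27 window. Both summits are intergenic with the GATA gene as the nearest protein-coding gene. The 100 bp around each holds CAGATG, centred 27.5 bp from the egl-18 summit and 22.5 bp from the egl-27 summit. CAGATG was present at 17.4% of all 1940 nuclear thresholded summits, and at 1 of the 5 inside the windows of 3000 bp upstream. The 2 flank summits were read only after the window was lengthened, so no trait of the flanks is drawn from them. The 100 bp around each are given on the plus strand with the E-box in capitals.

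egl-18 flank, chrIV:1898271-1898370: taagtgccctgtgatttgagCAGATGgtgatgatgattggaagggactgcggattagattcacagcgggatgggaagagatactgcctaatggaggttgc
egl-27 flank, chrII:6831018-6831117: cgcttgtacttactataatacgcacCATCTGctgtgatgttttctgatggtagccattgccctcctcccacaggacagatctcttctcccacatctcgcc

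The share of pyrimidines on 1 strand of the thresholded windows inside the gene windows was looked at after the sequences had been read. The larger of the C+T and A+G counts among the 100 bases was 71 at the egl-18 upstream summit, 70 at the egl-27 upstream summit, 67 at the egl-18 intron, 66 at the summit shared with elt-6 and 62 at the egl-27 intron. The median was 57 of 100 bases over all 1940 nuclear thresholded summits, with a 90th percentile of 68. The upstream summits of egl-18 and egl-27 passed that percentile, and the others lay below it. The egl-18 intron window holds a run of 13 identical bases, where 1.91% of all thresholded windows hold a run of 10 or more. Whether such sequence affects read mapping or signal here was not tested.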
